A study of Mus musculus with 3 samples.

Results

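Cells at the root of blood formation in the liver of newborn mice were sought as stem and multipotent progenitor barcodes (members). These members also included early committed progenitors, as described below. They were selected on measured counts. Each had at least 1 unique molecular identifier (UMI, a count of 1 captured molecule) of both Kit and Cd34. Each also had a UMI of at least 2 of the 8 stem genes Hlf, Mecom, Meis1, Flt3, Hoxa9, Angpt1, Mycn and Adgrl4. Mpo, the peroxidase of granulocyte precursors, had to lie below 2000 CPM (counts per 1000000 UMIs of a barcode or of a summed set of barcodes). The rule was met by 426 of 25845 barcodes, namely 76 of 8245 in the KO library, 215 of 8000 in the library labelled Het and 135 of 9600 in the library labelled WT.

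All 3 libraries came from livers at postnatal day 0. They were prepared from viable CD45-positive cells, sorted after a slow spin that removed hepatocytes and after lysis of red cells, then fixed and read with gene-specific probes. The genotypes were pex2-/- (KO), pex2-/+ (Het) and pex2+/+ (WT), with 1 library each. Pex2 encodes a membrane protein of the peroxisome that is needed for the import of its enzymes, and its loss models severe Zellweger disease. The number of animals behind a library and the promoter or design of the null allele were not stated in the labels. Every difference below lies between single libraries, without a replicate check or a test, and intervals (95%) cover counting error only.

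Blood-forming stem cells are maintained in the fetal liver by growth factor signals, among them stem cell factor through Kit. Around birth they leave this organ for the bone marrow, where most later become quiescent. Multipotent progenitors, their direct offspring, divide often and begin to transcribe genes of single blood lineages. Flt3, the receptor of a growth factor that favours lymphoid output, is a known gene of such progenitors, whereas Hlf, Mecom and Procr mark cells with long-term repopulating activity.

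The 3 libraries differed in depth, with medians of 19348, 15558.5 and 8218.5 UMIs per barcode in KO, labelled Het and labelled WT. Members were deep in each, with medians of 22194.5 UMIs in KO, 24629 in labelled Het and 15294 in labelled WT. Member UMIs summed to 1961512 in KO, 5514049 in labelled Het and 2247504 in labelled WT. No full barcode was shared between libraries, although 961 to 1184 pairs shared the first 16 bases. Pex2 (ENSMUSG00000040374, chromosome 3, 5560188 to 5576239, minus strand, GRCm38) had 0 UMIs in KO members, 308 in labelled Het members and 56 in labelled WT members. With a limit of 3 counts in KO, its level was at least 36.5-fold lower there than the 55.9 CPM of labelled Het and at least 16.3-fold lower than the 24.9 CPM of labelled WT. The level in labelled Het exceeded that in labelled WT, against the order of the labels, so both libraries are called by their labels here. Ddx3y, a Y-linked helicase, had 0 UMIs in KO members, 0 in labelled Het members and 317 in labelled WT members. Sex and genotype cannot be told apart in comparisons with labelled WT.

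The share of barcodes that met the rule was lowest in KO. It was 0.922% in KO (Clopper-Pearson interval 0.727 to 1.15), 2.69% in labelled Het (2.34 to 3.07) and 1.41% in labelled WT (1.18 to 1.66). These intervals did not overlap. The KO share was 0.343 times the labelled Het share (0.260 to 0.447) and 0.655 times the labelled WT share (0.488 to 0.875). The labelled Het share was itself 1.91 times that of labelled WT (1.53 to 2.39), so libraries with Pex2 RNA also stood apart. Under a stricter Mpo limit of 500 CPM the ratio of KO to labelled WT was 0.748, with an interval (0.533 to 1.04) that included 1. With no limit on Mpo the KO ratios were 0.395 to labelled Het and 0.633 to labelled WT. The order of shares was not particular to members. Kit and Cd34 barcodes at 2000 CPM of Mpo or more had it too, with 139 in KO, 319 in labelled Het and 272 in labelled WT. So did those below that limit with 0 or 1 stem genes, with 45, 96 and 64. Depth changes who meets a rule of detected genes, and each barcode was therefore thinned to 5000 UMIs, which left out 758 KO, 746 labelled Het and 2109 labelled WT barcodes. In the first random draw the rule was then met by 26 of 7487 barcodes in KO, 91 of 7254 in labelled Het and 58 of 7491 in labelled WT. Over repeated draws it was met by 20 to 29 barcodes in KO, 76 to 101 in labelled Het and 49 to 71 in labelled WT. At this matched depth the KO share in the first draw was 0.277 times the labelled Het share and 0.449 times the labelled WT share.

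**Figure D1:**
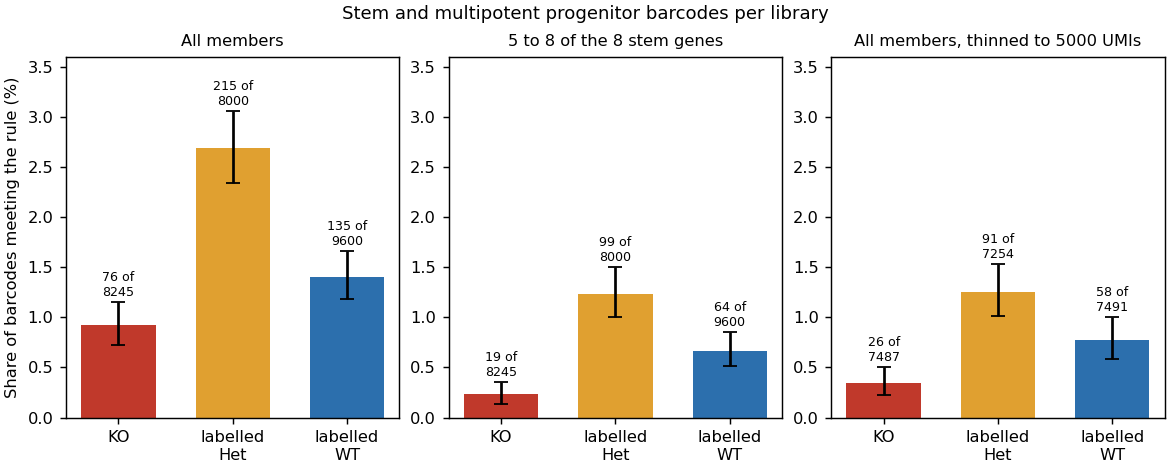
Share of barcodes per library that met the rule (bars, %, with 95% Clopper-Pearson intervals that cover counting error only), for all members, for members with 5 to 8 of the 8 stem genes, and after each barcode was thinned to 5000 UMIs. KO was lowest in each panel, at 0.922%, 0.230% and 0.347%, and labelled Het was highest, at 2.69%, 1.24% and 1.25%.

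Members spread over the whole range of the 8 stem genes, and KO members were concentrated at the low end. Exactly 2 of the genes were found in 31 KO, 66 labelled Het and 36 labelled WT members. Just outside the rule, 1 of the genes was found in 33 KO, 69 labelled Het and 41 labelled WT barcodes. The highest Mpo level inside the rule was 1827 CPM in KO, 1888 CPM in labelled Het and 1952 CPM in labelled WT, and the lowest level outside was 2078, 2022 and 2028 CPM. Members with 5 to 8 of the genes, a limit chosen after values were seen, numbered 19 in KO, 99 in labelled Het and 64 in labelled WT. They made up 25% of KO members (15.8 to 36.3), 46.0% of labelled Het members (39.2 to 53) and 47.4% of labelled WT members (38.8 to 56.2). As a share of all barcodes they were 0.230% in KO, 1.24% in labelled Het and 0.667% in labelled WT. This KO share was 0.186 times that of labelled Het and 0.346 times that of labelled WT.

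**Figure D2:**
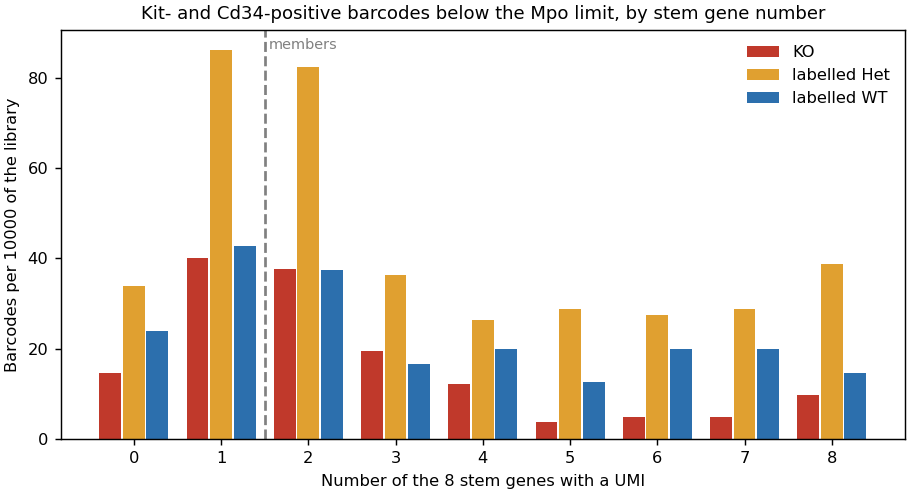
Barcodes with Kit and Cd34 and with Mpo below the limit, per 10000 barcodes of the library (y axis), by how many of the 8 stem genes had a UMI (x axis). Members lie right of the dashed line, where KO bars were below labelled Het bars at every number, and the gap to labelled WT opened from 4 genes upwards.

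The label was checked against the markers of stem cells. The genes of the rule are given as a description, since the rule chose on them. Kit, the stem cell factor receptor, had 372 CPM in KO, 353 CPM in labelled Het and 315 CPM in labelled WT, and Cd34, a surface sialomucin of progenitors, had 455, 452 and 330 CPM. The transcription factor genes Hlf and Mecom were lower in KO, at 89.7 and 42.3 CPM, against 167 and 60.8 CPM in labelled Het and 220 and 86.3 CPM in labelled WT. Meis1 had 181 CPM in KO, 285 CPM in labelled Het and 295 CPM in labelled WT, and its partner Hoxa9 had 43.3, 77.8 and 97.0 CPM. Mycn, a Myc family factor, had 58.6 CPM in KO, against 202 CPM in labelled Het and 183 CPM in labelled WT. Adgrl4, an adhesion receptor, had 239 CPM in KO, 430 CPM in labelled Het and 471 CPM in labelled WT. Flt3 went the other way, with 98.9 CPM in KO, 79.4 CPM in labelled Het and 81.0 CPM in labelled WT.

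Members with 5 to 8 stem genes were chosen on these same genes, so their levels are a description only. Hlf there had 467 CPM in KO, 354 CPM in labelled Het and 490 CPM in labelled WT, and Mecom had 231, 132 and 195 CPM. Flt3 was higher in KO, at 196 CPM, against 69.8 CPM in labelled Het and 73.7 CPM in labelled WT. Mycn stayed lowest in KO, at 272 CPM against 365 and 307 CPM in labelled Het and labelled WT.

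A stem marker that the rule did not use was present in each library. Procr, the endothelial protein C receptor of stem cells, was found after thinning in 11.1% of KO members (4.92 to 20.7), 18.1% of labelled Het members (13.2 to 24.0) and 20.9% of labelled WT members (14.4 to 28.8). It was found in 0 of 1000 barcodes rich in neutrophil RNA in each library. Procr UMIs came almost wholly from members with 5 to 8 stem genes, namely 39 of 42 in KO, 253 of 256 in labelled Het and 132 of 132 in labelled WT.

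Members with fewer stem genes held genes of several later lineages, so the rule took in early committed progenitors too. Irf8, a factor of monocyte and dendritic cell precursors, had 291 CPM in KO, 720 CPM in labelled Het and 1344 CPM in labelled WT members with exactly 2 stem genes. In members with 5 to 8 it had 14.6 CPM in KO, 38.7 CPM in labelled Het and 176 CPM in labelled WT. Klf1, an erythroid factor, likewise had 86.3 CPM in KO, 118 CPM in labelled Het and 109 CPM in labelled WT at 2 stem genes, and 26.3, 36.3 and 36.4 CPM at 5 to 8. Pf4, a platelet chemokine, peaked at 3 or 4 stem genes, with 153 CPM in KO, 208 CPM in labelled Het and 337 CPM in labelled WT. The 8 endothelial markers summed to 29.1 CPM in KO, 79.8 CPM in labelled Het and 72.1 CPM in labelled WT, of which Tie1 and Tek, also known from stem cells, gave most. The endothelial cadherin gene Cdh5 had 1.02, 1.27 and 1.78 CPM. Hepatocyte markers summed to 11.7 CPM in KO, 7.25 CPM in labelled Het and 2.22 CPM in labelled WT, and macrophage markers to 20.4, 16.1 and 16.5 CPM. Mesenchymal markers summed to 80.0 CPM in KO, 45.9 CPM in labelled Het and 38.3 CPM in labelled WT, nearly all of it Pdgfrb, a growth factor receptor of pericytes, while Col3a1, Dcn and Lum were at 0 UMIs. This sum was 117, 48.9 and 39.4 CPM at 5 to 8 stem genes, and its part in the differences was not tested.

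Neutrophil RNA gave the highest sum among the marker lists of other mature cells. The 6 neutrophil markers summed to 44985 CPM in KO members, 23298 CPM in labelled Het members and 32907 CPM in labelled WT members. Median shares per member were low, at 0.210% in KO, 0.237% in labelled Het and 0.498% in labelled WT, and the sums rested on few barcodes. At least 1% of UMIs came from these markers in 11 KO, 28 labelled Het and 30 labelled WT members. Among members with 5 to 8 stem genes the sum was 2441 CPM in KO, 20026 CPM in labelled Het and 35723 CPM in labelled WT. Doublets were called in 9 KO, 4 labelled Het and 2 labelled WT members, and 0, 2 and 1 of these had 5 to 8 stem genes. They made up 11.8% of KO, 1.86% of labelled Het and 1.48% of labelled WT members. Among all barcodes of these libraries, doublets were 3.6%, 2.3% and 2.8%. The part of neutrophil RNA and doublets in the results below was not tested, and values without the members rich in either are given where they turn a direction.

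**Figure D3:**
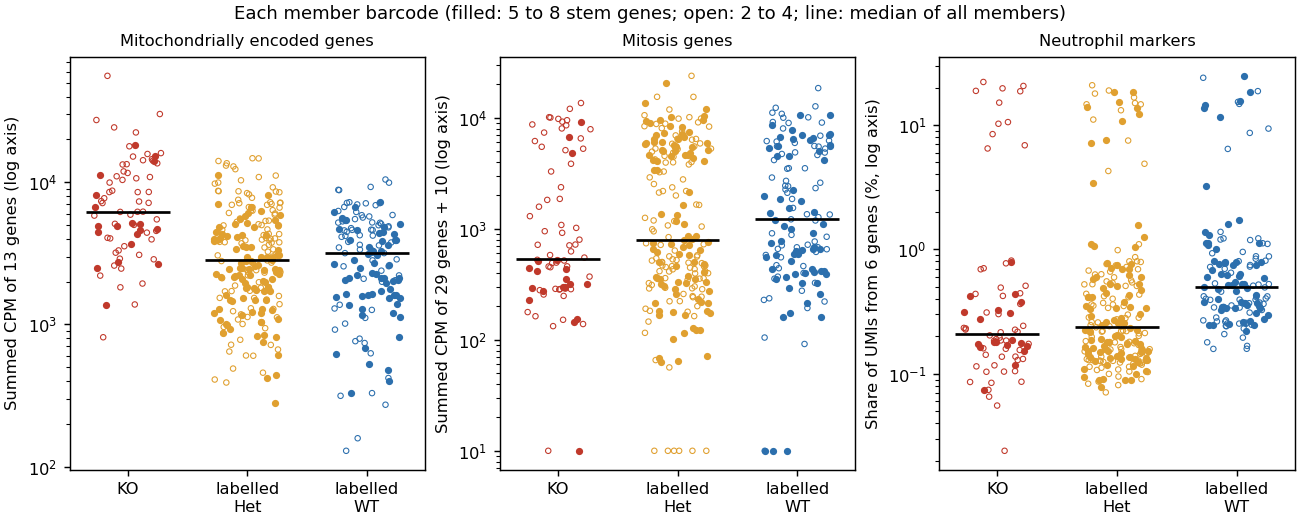
Each member barcode (points; filled, 5 to 8 stem genes; open, 2 to 4) with its summed CPM of 13 mitochondrially encoded genes, its summed CPM of 29 mitosis genes with 10 added, and its share of UMIs from 6 neutrophil markers, all on log axes. Black lines are medians over all members, which for mitochondrially encoded genes were 6200 CPM in KO, 2819 CPM in labelled Het and 3170 CPM in labelled WT.

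Gene levels were compared in the UMIs summed over members. A gene counted as past 2-fold when its ratio was at least 2-fold and the interval of that ratio excluded 1, among 5590 genes with a mean of at least 50 CPM. KO was past 2-fold higher than labelled Het for 107 genes (1.91% of those compared) and lower for 131 (2.34%). Against labelled WT, KO was higher for 258 genes (4.62%) and lower for 214 (3.83%). Labelled Het was higher than labelled WT for 43 genes (0.769%) and lower for 13 (0.233%). KO lay past 2-fold above both other libraries for 83 genes (1.48%) and below both for 88 (1.57%). Both KO comparisons use the same KO sum, so their ratios are not independent. At any size, KO lay above both others for 36.6% of the genes compared and below both for 44.2%. Gene lists below use genes with a mean of at least 20 CPM, of which KO was above both for 36.2% and below both for 44.8%. The median log2 ratio of all such genes was -0.05 for KO over labelled Het, -0.04 for KO over labelled WT and 0.03 for labelled Het over labelled WT.

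Genes of DNA replication were lower in KO members. KO lay below both other libraries for 32 of 34 S phase genes and above both for 0. The median log2 ratio was -0.43 for KO over labelled Het and -0.80 for KO over labelled WT. Pcna, the sliding clamp of the replication fork, had 404 CPM in KO, 544 CPM in labelled Het and 648 CPM in labelled WT. Past 2-fold lower than both were Cdc6, which loads the replicative helicase, and Ung, a uracil-DNA glycosylase. Cdc6 had 27.5 CPM in KO, 68.2 CPM in labelled Het and 69.0 CPM in labelled WT, and Ung had 44.9, 111 and 150 CPM. The KO level was outside the other libraries' levels in both genes.

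The same was seen barcode by barcode at matched depth. Of the 34 S phase genes, a median of 9 was detected in KO members, 16 in labelled Het members and 20 in labelled WT members thinned to 5000 UMIs. At 5 to 8 stem genes the medians were 7 in KO, 16 in labelled Het and 18 in labelled WT, with ranges of 2 to 21, 2 to 29 and 4 to 30. The distributions overlapped, but the upper quartile in KO was 9 genes, whereas the lower quartile was 8 in labelled Het and 10 in labelled WT. In this group the median log2 ratio of the S phase list was -1.13 for KO over labelled Het and -1.21 for KO over labelled WT.

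Mitosis genes differed little over all members, with medians of -0.12 for KO over labelled Het and -0.11 for KO over labelled WT. They were lower in KO among members with 5 to 8 stem genes, where the medians were -1.28 and -0.79 and the 29 genes summed to 1781 CPM in KO, 4014 CPM in labelled Het and 3246 CPM in labelled WT. Top2a, the topoisomerase of dividing cells, had 210 CPM there in KO, 489 CPM in labelled Het and 478 CPM in labelled WT. These values rest on 19 KO barcodes, whose upper quartile of summed mitosis levels was 469 CPM.

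Cyclins that drive entry into the cell cycle were lower in KO too. Ccnd1 had 37.2 CPM in KO, against 111 CPM in labelled Het and 102 CPM in labelled WT, or 0.334 times (0.259 to 0.427) and 0.365 times (0.277 to 0.477). Ccnd2 had 195 CPM in KO, 501 CPM in labelled Het and 457 CPM in labelled WT. Cdk4, their kinase, had 119, 230 and 284 CPM, whereas the related Cdk6 had 388, 378 and 272 CPM. In all, 12 of 20 genes of the G1 list lay below both other libraries in KO and 5 above both. Exo1, an exonuclease of DNA repair and replication, had 27.0 CPM in KO, 77.1 CPM in labelled Het and 101 CPM in labelled WT.

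Growth genes were mostly lower as well. Of 25 genes for Myc factors, polyamine synthesis and ribosome assembly, 17 lay below both other libraries in KO and 1 above both, with medians of -0.56 and -0.43. Odc1, the first enzyme of polyamine synthesis, had 169 CPM in KO, 452 CPM in labelled Het and 346 CPM in labelled WT. Bysl, a factor of small ribosomal subunit assembly, had 26.0, 75.8 and 78.8 CPM. Ncl, the nucleolar protein nucleolin, did not lie outside the others, at 545 CPM in KO, 665 CPM in labelled Het and 506 CPM in labelled WT.

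Amino acid and serine pathway genes were also lower in KO, but labelled Het and labelled WT also differed here. Of 15 targets of the stress factor ATF4 and serine-folate enzymes, 12 lay below both other libraries in KO and 2 above both. The medians were -0.94 for KO over labelled Het, -0.50 for KO over labelled WT and 0.49 for labelled Het over labelled WT. Asns, asparagine synthetase, had 44.9 CPM in KO, 238 CPM in labelled Het and 73.0 CPM in labelled WT, so its widest gap set labelled Het apart. Psat1, a serine synthesis enzyme, had 64.2, 192 and 121 CPM, and the mitochondrial folate enzyme Shmt2 had 240, 508 and 445 CPM. Cars, which charges the transfer RNA of cysteine, had 30.1 CPM in KO, against 173 CPM in labelled Het and 106 CPM in labelled WT. Of 21 glycolysis and hypoxia genes, 14 lay below both in KO and 5 above both, and Ldha, lactate dehydrogenase A, had 577 CPM in KO, 1186 CPM in labelled Het and 1122 CPM in labelled WT.

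Mitochondrially encoded transcripts were higher in KO. KO lay above both other libraries for 12 of 13 genes, 7 of them past 2-fold, with medians of 1.01 and 1.29 and of 0.37 for labelled Het over labelled WT. mt-Atp6, a subunit of ATP synthase, had 1417 CPM in KO, 381 CPM in labelled Het and 305 CPM in labelled WT, or 3.72 times (3.51 to 3.93) and 4.65 times (4.28 to 5.06). mt-Nd1, a complex I subunit, had 816, 269 and 150 CPM, and mt-Co3, a complex IV subunit, had 901, 320 and 222 CPM. mt-Nd6, the member encoded on the other strand, went the other way, with 164 CPM in KO, 200 CPM in labelled Het and 438 CPM in labelled WT. Nuclear genes of oxidative phosphorylation were not higher, with 16 of 27 below both and 6 above both in KO.

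The difference in mitochondrial transcripts was not limited to a class of members. Where 5 to 8 stem genes were found, mt-Atp6 had 1355 CPM in KO, 282 CPM in labelled Het and 235 CPM in labelled WT. It was also seen outside the members, where mt-Atp6 had 483 CPM in KO, 187 CPM in labelled Het and 143 CPM in labelled WT over all other barcodes.

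The glucocorticoid receptor gene and genes induced through it were mostly higher in KO, with list medians in the order KO, labelled Het, labelled WT. KO lay above both other libraries for 13 of 14 genes of this list. The medians were 0.79 for KO over labelled Het, 1.58 for KO over labelled WT and 0.82 for labelled Het over labelled WT, so the libraries with Pex2 RNA differed by as much as KO and labelled Het. Tsc22d3, a glucocorticoid-induced leucine zipper protein, had 611 CPM in KO, 302 CPM in labelled Het and 171 CPM in labelled WT. Per1, a clock gene, had 465, 221 and 96.1 CPM, and Klf9, a zinc finger factor, had 110, 53 and 11.1 CPM. The receptor gene Nr3c1 was highest in KO but did not follow the full order, with 141 CPM in KO, 102 CPM in labelled Het and 106 CPM in labelled WT. Txnip was the only gene of the list not highest in KO, with 768 CPM in KO, 1075 CPM in labelled Het and 779 CPM in labelled WT.

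Cxcr4, the receptor for the chemokine that holds stem cells in their niche, belonged to the same list. It had 563 CPM in KO, 237 CPM in labelled Het and 166 CPM in labelled WT, or 2.38 times (2.19 to 2.58) and 3.40 times (3.02 to 3.84). At 5 to 8 stem genes it had 561 CPM in KO, 136 CPM in labelled Het and 117 CPM in labelled WT. Over all other barcodes the levels lay closer together, at 505, 444 and 411 CPM. Of 18 growth factor and chemokine receptors with a mean of at least 50 CPM, Cxcr4 alone lay past 2-fold above both. Of 21 such genes with at least 20 CPM, 12 lay above both and 7 below both at any size.

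Genes of the fetal blood programme were lower in KO, and 1 of them was not detected. Igf2bp1, an RNA-binding protein of fetal cells, had 0 UMIs in KO members, 292 in labelled Het members and 50 in labelled WT members. Against a limit of 3 counts in KO, it was at least 34.6-fold lower than the 53 CPM of labelled Het and at least 14.5-fold lower than the 22.2 CPM of labelled WT. All other barcodes gave 0.288 CPM in KO, 10.7 CPM in labelled Het and 2.89 CPM in labelled WT. Its relative Igf2bp2 had 31.1, 101 and 64.1 CPM, and Igf2bp3 had 85.1, 102 and 126 CPM. Dlk1, an imprinted surface protein, had 31.1 CPM in KO, 114 CPM in labelled Het and 69.0 CPM in labelled WT. Hmga2, a chromatin protein that sustains fetal self-renewal in mice, had 53, 104 and 133 CPM, while Lin28b, an RNA-binding protein that sets the fetal state, had 40.3, 44.3 and 35.2 CPM. In all, 8 of 10 genes lay below both in KO and 0 above both, with medians of -1.0 and -1.09.

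Only part of this held at the stem end. Among members with 5 to 8 stem genes, Igf2bp1 had 0 UMIs in KO, 167 in labelled Het and 26 in labelled WT. Dlk1 there had 158 CPM in KO, 226 CPM in labelled Het and 142 CPM in labelled WT, and Hmga2 had 187, 196 and 237 CPM. The list medians were -0.54 and -0.27.

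Stem identity genes outside the rule also depended on the class. Over all members 20 of 33 lay below both other libraries in KO and 6 above both, with medians of -0.31 and -0.35. Lyl1 and Gata2, factors of early blood cells, were past 2-fold lower. Lyl1 had 108 CPM in KO, 242 CPM in labelled Het and 347 CPM in labelled WT, and Gata2 had 150, 317 and 389 CPM. In members with 5 to 8 stem genes the medians were 0.18 and 0.22, while Lyl1 remained lowest in KO, at 155 CPM against 288 CPM in labelled Het and 381 CPM in labelled WT. Slamf1, the surface protein CD150 of stem cells, had 14 UMIs in KO members, 208 in labelled Het members and 71 in labelled WT members, or 7.14, 37.7 and 31.6 CPM.

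**Figure D4:**
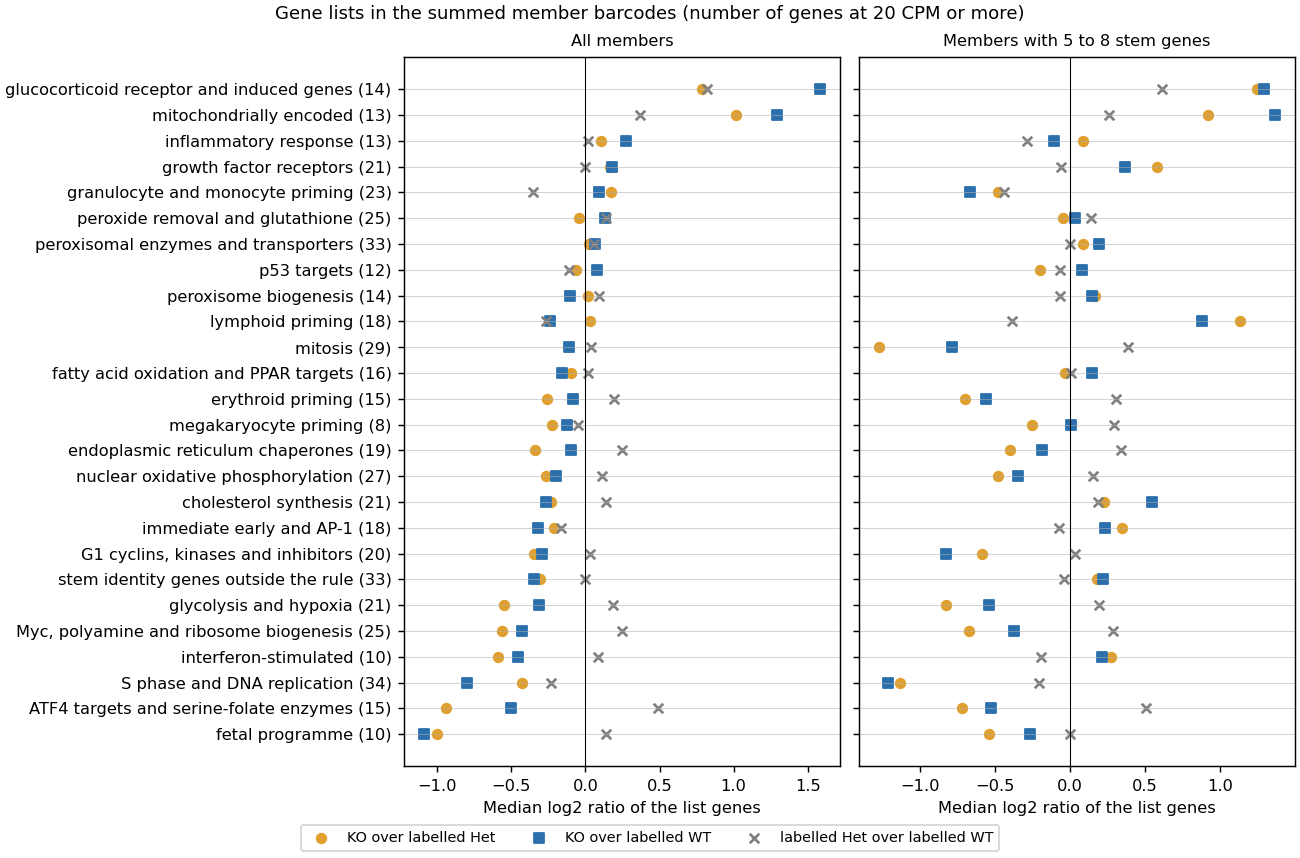
Median log2 ratio (0.5 counts added) of each gene list with at least 8 genes at 20 CPM or more, for all members and for members with 5 to 8 stem genes. Circles are KO over labelled Het, squares KO over labelled WT and crosses labelled Het over labelled WT; glucocorticoid and mitochondrially encoded genes lay above 0 and S phase and growth genes below 0 for KO in both panels.

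Lineage genes differed in direction between classes of members. The lymphoid list had medians of 0.03 for KO over labelled Het and -0.24 for KO over labelled WT, with 6 of 18 genes above both and 8 below both. At 5 to 8 stem genes these medians were 1.13 and 0.88. There Satb1, a chromatin organiser of lymphoid priming, had 283 CPM in KO, 99.8 CPM in labelled Het and 92.9 CPM in labelled WT. Bcl11a, a factor needed for lymphoid development, had 674, 357 and 257 CPM, and Ighm, the heavy chain of IgM, had 1130, 230 and 412 CPM. The B-lineage markers summed there to 280 CPM in KO, 113 CPM in labelled Het and 180 CPM in labelled WT, over only 19 KO barcodes, and their part in these values was not tested. Among members of all classes thinned to 5000 UMIs, Ighm was found in 29.2% of KO, 30.2% of labelled Het and 44.0% of labelled WT members, against 34.2%, 50.7% and 69.6% unthinned. Among thinned barcodes rich in neutrophil RNA it was found in 3.50%, 8.10% and 20.7%. Cd7, a surface protein of early lymphoid cells, was past 2-fold higher over all members, with 95.8 CPM in KO, 38.3 CPM in labelled Het and 17.4 CPM in labelled WT. Rag1, a subunit of the lymphoid recombinase, was lowest in KO, at 5.10 CPM against 35.0 CPM in labelled Het and 65.0 CPM in labelled WT.

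Some myeloid genes rested on few barcodes. The granulocyte and monocyte list had medians of 0.17 and 0.09 over all members, with 13 of 23 genes above both and 6 below both. At 5 to 8 stem genes its medians turned to -0.48 and -0.67. Neutrophil markers there gave at most 0.790% of the UMIs of a KO member. The highest shares were 18.5% in labelled Het and 24.8% in labelled WT. Over all members without those rich in neutrophil RNA, the list medians did not turn, at 0.23 and 0.18. The part of neutrophil RNA in the turn was not tested. Fcgr3, an immunoglobulin receptor, had 93.8 CPM in KO, 33.9 CPM in labelled Het and 38.3 CPM in labelled WT, but 5.84, 18.9 and 35.4 CPM in members with 5 to 8 stem genes. Prg2, the eosinophil major basic protein, had 537 CPM in KO, 4.35 CPM in labelled Het and 36.9 CPM in labelled WT, with 99.7% of the KO UMIs in a single barcode. Ms4a2, a subunit of the IgE receptor of mast cells and basophils, had 63.2, 19.6 and 11.6 CPM, and 49.2% of its KO UMIs came from 1 barcode. Rab27b, a vesicle GTPase of megakaryocytes, was past 2-fold higher in KO, at 160 CPM against 42.8 CPM in labelled Het and 56.1 CPM in labelled WT. The megakaryocyte list as a whole was not higher, with medians of -0.23 and -0.12. In KO, 2 of its 8 genes lay above both other libraries and 5 below both. Erythroid genes had medians of -0.26 and -0.08.

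Genes of the peroxisome itself lay on both sides. Of 14 biogenesis genes, 5 lay above both other libraries in KO and 6 below both, with medians of 0.01 and -0.11. Pex3, a membrane import factor, had 39.8 CPM in KO, 20.3 CPM in labelled Het and 17.8 CPM in labelled WT, and Pex13, a docking factor, had 77.0, 49.0 and 35.6 CPM. Pex10, which forms a complex with Pex2, had 9.69 CPM in KO, 27.6 CPM in labelled Het and 20.0 CPM in labelled WT. Of 33 peroxisomal enzymes and transporters, 14 lay above both and 11 below both, and of the 20 with a mean of at least 50 CPM, 0 were past 2-fold from both in either direction. Cat, the catalase gene, had 254 CPM in KO, 238 CPM in labelled Het and 228 CPM in labelled WT. Genes for peroxide removal and glutathione had medians of -0.04 and 0.13. Among them Gsta4, a transferase for lipid aldehydes, had 124 CPM in KO, 53.7 CPM in labelled Het and 20.9 CPM in labelled WT, while Gstp3 had 5.10, 38.3 and 44.5 CPM. Glutathione transferases have close copies that may share probes, so these values are uncertain.

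The largest differences of KO from both other libraries, by a rule of size, fell into a few kinds. Their direction was not limited to members. Over all other barcodes KO lay on the same side of both others for each of the 14 highest and 14 lowest genes. Of the 14 genes highest in KO, Mmp8, Ifitm6, Chil3 and Fpr2 are known from neutrophils and monocytes and Tgfbi from monocytes and macrophages. Chil3, a chitinase-like protein, had 2388 CPM in KO, 558 CPM in labelled Het and 659 CPM in labelled WT, and 28% of its KO UMIs came from a single barcode. In members with 5 to 8 stem genes it had 96.3 CPM in KO, 677 CPM in labelled Het and 515 CPM in labelled WT, the opposite direction. Mmp8, Ifitm6, Fpr2 and Tgfbi also had their lowest level in KO there. Without the members rich in neutrophil RNA, Chil3 was again highest in KO, at 372 CPM against 70.6 CPM in labelled Het and 62.2 CPM in labelled WT. Mmp8, Ifitm6, Fpr2 and Tgfbi were highest in KO there too, with Mmp8 at 62.0, 10.1 and 17.8 CPM. Ap1s2, a clathrin adaptor subunit, had 142 CPM in KO, 34.3 CPM in labelled Het and 33.8 CPM in labelled WT, against 26.3, 15.8 and 24.2 CPM at 5 to 8 stem genes. Pla2g7, which inactivates platelet-activating factor, had 132, 22.1 and 10.7 CPM.

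Other genes high in KO were so in members with 5 to 8 stem genes too. Slc28a2, a sodium-coupled nucleoside transporter (chromosome 2, 122426477 to 122461137, plus strand), had 995 CPM in KO, 263 CPM in labelled Het and 69.0 CPM in labelled WT, or 3.78 times (3.53 to 4.05) and 14.4 times (12.2 to 17.1). There it had 1139 CPM in KO, 207 CPM in labelled Het and 49.5 CPM in labelled WT. Over all other barcodes it had 102, 38.9 and 19.0 CPM, so KO was highest outside the members as well. Zfp949, a zinc finger gene, had 217 CPM in KO, 56.0 CPM in labelled Het and 62.7 CPM in labelled WT. Gpr65, a proton-sensing receptor, had 184, 51.0 and 31.6 CPM. Trp53inp1, a p53-induced gene, had 155, 42.6 and 45.8 CPM, although the p53 target list as a whole had medians of -0.06 and 0.08. Trnp1, a nuclear protein studied in neural progenitors, had 173, 43.3 and 18.7 CPM, and the chemokine Ccl9 had 114, 37.5 and 20.5 CPM.

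Genes lowest in KO included surface and secreted proteins of early progenitors. Ccn3, a matricellular protein (chromosome 15, 54745702 to 54754039, plus strand), had 14.3 CPM in KO, 114 CPM in labelled Het and 106 CPM in labelled WT, or 0.125 times (0.0826 to 0.183) and 0.134 times (0.0873 to 0.199). Most of its UMIs lay in members with 5 to 8 stem genes, where it still had 67.1 CPM in KO, against 239 CPM in labelled Het and 233 CPM in labelled WT. Egfl7, a secreted protein of endothelium and stem cells, had 88.7, 255 and 331 CPM, and Igfbp4, which binds insulin-like growth factors, had 142, 389 and 412 CPM. At 5 to 8 stem genes they had 315 and 254 CPM in KO, 440 and 491 CPM in labelled Het and 611 and 481 CPM in labelled WT. Over all other barcodes the Igfbp4 levels lay closer together, at 147 CPM in KO, 173 CPM in labelled Het and 176 CPM in labelled WT.

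Metabolic and nuclear genes made up most of the rest. Galk1, galactokinase, had 61.7 CPM in KO, 196 CPM in labelled Het and 195 CPM in labelled WT, and at 5 to 8 stem genes 58.4, 203 and 191 CPM. Over all other barcodes Galk1 had 11.9 CPM in KO, 45.2 CPM in labelled Het and 47.5 CPM in labelled WT. Dnph1, which clears a modified nucleotide, had 21.4, 79.3 and 69.4 CPM, and Zcchc3, a nucleic acid-binding protein, had 32.1, 94.3 and 122 CPM. Rcor2, a corepressor subunit, had 17.3 CPM in KO, 89.2 CPM in labelled Het and 51.2 CPM in labelled WT, and at 5 to 8 stem genes 78.8, 115 and 82.8 CPM. Lst1, a leukocyte membrane protein, had 42.3, 129 and 140 CPM.

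Antigen presentation was represented by H2-Ab1, a chain of MHC class II. It had 31.1 CPM in KO, 318 CPM in labelled Het and 162 CPM in labelled WT, or 0.0977 times (0.0744 to 0.126) and 0.191 times (0.144 to 0.252). Of its KO UMIs, 60.7% came from a single barcode. Members with 5 to 8 stem genes had 14.6, 15.4 and 8.08 CPM, so the KO level lay between the others. Naaa, a lysosomal acid amidase, likewise had 22.9 CPM in KO, 83.8 CPM in labelled Het and 83.2 CPM in labelled WT over all members, but 14.6, 20.5 and 22.2 CPM at 5 to 8 stem genes.

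**Figure D5:**
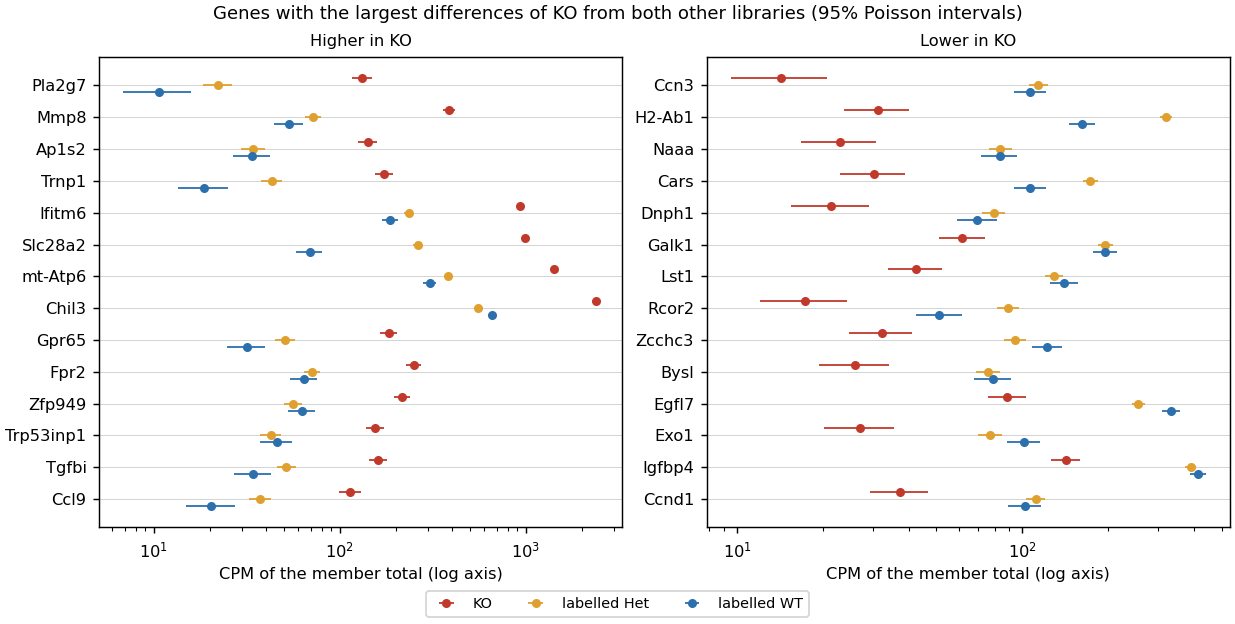
Level of the 14 genes highest and the 14 lowest in KO, in CPM of the summed members (log axis), with 95% Poisson intervals. Red points are KO, yellow labelled Het and blue labelled WT; separation of KO from both others is how these genes were chosen.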

How the data were processed

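UMI counts per gene and barcode were deposited by the authors as 3 matrices of 19059 genes, made with Cell Ranger 7.0.0 against mm10, per the submitters' processing notes. Barcode filters and the probe set version were not stated. The deposited counts were not normalised.

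The members, the 37 gene lists and the settings were chosen with earlier results of these data known. Members were found per barcode from raw counts. Their UMIs were summed per library, scaled to CPM, and given exact Poisson intervals. Intervals of ratios are conditional binomial (exact), those of shares Clopper-Pearson, and log2 ratios have 0.5 counts added. A single library per genotype allowed no test. Genes compared averaged at least 50 CPM, with 30 UMIs or more in all; lists used a mean of at least 20 CPM. The 14 genes named in each direction also had a UMI in at least 20% of members of the highest library, with KO outside both others and both intervals excluding 1. They were ranked by the smaller absolute log2 ratio, without Pex2, Y-linked genes, Xist, Tsix and the rule's genes. Other genes of the X chromosome, such as Ap1s2, were kept. Up to 5 genes of a list were named by level or size; Procr, Slamf1, Irf8, Klf1, Pf4, Rag1, Ncl, Lin28b, Pex3, Pex10 and Gstp3 were named after their values were seen.

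Barcodes were thinned without replacement to 5000 or 3000 UMIs. Shares and share ratios after thinning are those of the first random draw. Scrublet (scanpy 1.11.5) marked doublets within each library, and they were kept unless stated. Python 3.11.15, numpy 2.4.6 and scipy 1.17.1 were used. TMM factors (edgeR 4.0.16) and median-of-ratios factors (DESeq2 1.42.0, R 4.3.3) served as alternative scalings only. The interval and fold rule were tested on simulated data. Gene positions come from the GRCm38 annotation. Annotation of cells by the submitters was not used here. A few genes are not reported.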

Additional observations from a re-analysis of the deposited data

How the results depend on the processing

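No paired analysis was possible because each genotype has 1 library. For the same reason no replicate could be left out. The ratios of shares kept their direction under every alternative run. The KO over labelled WT ratio was 0.449 at 5000 UMIs. With at least 5 of the 8 stem genes, chosen after seeing the data, the KO over labelled Het and KO over labelled WT ratios were 0.186 and 0.346. With the same limit and only barcodes of at least 10000 UMIs they were 0.178 and 0.243, and labelled Het over labelled WT was 1.37 with an interval that includes 1. With Mpo below 500 CPM the KO over labelled WT ratio was 0.748 (0.533 to 1.04), an interval that includes 1. TMM and median-of-ratios scaling moved no count of genes past 2-fold by over 1.5 times.

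Counts past 2-fold depended on the filter and the class. The number of genes compared changed with them, so the counts below cannot be read as shares. With no filter beyond 1 UMI, KO over labelled Het gave 502 higher and 812 lower, KO over labelled WT 740 and 911, labelled Het over labelled WT 256 and 223, and KO against both 308 and 472. With 5 to 8 stem genes, KO over labelled Het gave 243 higher and 348 lower, KO over labelled WT 408 and 373, KO against both 167 and 262, and labelled Het over labelled WT 33 lower. Those sums hold fewer UMIs and fewer barcodes. Thinned members gave 197 lower for KO over labelled Het, and 75 higher and 28 lower for labelled Het over labelled WT. Labelled Het over labelled WT also gave 21 lower at 3 or more stem genes and 28 lower without members rich in neutrophil RNA.

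Some directions turned, and the cause was not tested. List medians are given less that of all genes, KO over labelled Het before KO over labelled WT. Neutrophil markers turned to -0.087 and -0.51 without doublets, to -3.51 and -4.38 at 5 to 8 stem genes, and to -0.69 and -1.45 without members rich in neutrophil RNA. Interferon genes turned to 0.22 and 0.11 at 5 to 8 stem genes. The granulocyte and monocyte list also turned at 5 to 8 stem genes, to -0.48 and -0.67 before the median of all genes was taken off. It did not turn without members rich in neutrophil RNA, at 0.23 and 0.18 on the same scale. For KO over labelled WT, stem identity genes turned to 0.12 at 5 to 8 stem genes, and inflammatory genes to -0.21 there and -0.47 without doublets. Single log2 ratios at 5 to 8 stem genes were -2.37 and -2.38 for Mmp8, -1.87 and -1.61 for Ifitm6, -2.79 and -2.40 for Chil3, -1.50 and -1.89 for Fpr2, -0.59 and -0.49 for Tgfbi, and 0.043 and 0.90 for H2-Ab1. At 3 or more stem genes they were -0.51 and -0.75 for Chil3, 0.73 and 0.67 for Naaa, and 0.73 for H2-Ab1 over labelled WT.

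Depth limits the rule, since 9 members in KO, 24 in labelled Het and 21 in labelled WT met it with a single Kit UMI. Values for KO members with 5 to 8 stem genes rest on 19 barcodes, and genes below the filter were not compared.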

Other observations

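Further gene groups had the following values over the summed members. Of 16 genes of mitochondrial fatty acid oxidation and PPAR targets, 6 lay above both other libraries in KO and 8 below both, with median log2 ratios of -0.10 for KO over labelled Het and -0.16 for KO over labelled WT. Etfb, an electron carrier subunit of this pathway, had 286 CPM in KO, 461 CPM in labelled Het and 586 CPM in labelled WT. Of 21 cholesterol synthesis genes, 14 lay below both and 2 above both in KO, with medians of -0.23 and -0.26, whereas the medians at 5 to 8 stem genes were 0.22 and 0.54. Of 19 chaperone and folding genes of the endoplasmic reticulum, 12 lay below both and 3 above both, with medians of -0.34 and -0.10.

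Among 10 interferon-stimulated genes 7 lay below both other libraries in KO and 1 above both, with medians of -0.59 and -0.45, whereas the medians at 5 to 8 stem genes were 0.27 and 0.22. Bst2, an antiviral membrane protein, had 128 CPM in KO, 276 CPM in labelled Het and 198 CPM in labelled WT. Of 18 immediate early genes 9 lay below both and 7 above both. Fosb, an AP-1 subunit, had 3.06 CPM in KO, 35.4 CPM in labelled Het and 46.7 CPM in labelled WT, while Jun had 66.8, 49.1 and 56.1 CPM. Hdc, the histamine-forming enzyme of mast cells and basophils, had 144 CPM in KO, 67.1 CPM in labelled Het and 60.1 CPM in labelled WT.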
